A study of Rattus norvegicus with 24 samples.

Results

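The protein part of the cytosolic ribosome was followed through dehydration in the supraoptic nucleus of rats, a cell group of the hypothalamus that holds the large neurons secreting vasopressin and oxytocin. Members were all Affymetrix probe sets whose single gene symbol in the platform annotation named a ribosomal protein of the large (Rpl) or small (Rps) subunit, together with Rplp0 and Rpsa. S6 kinases and copies marked as pseudogenes or as like genes by a trailing number were left out. The rule took 51 of 31042 probe sets, which stand for 45 symbols: 33 probe sets for 30 symbols of the large subunit and 18 probe sets for 15 symbols of the small subunit. No probe set had Rplp1 or Rplp2 as its single symbol. A further 30 probe sets list several symbols, all of ribosomal proteins or their copies, and were counted apart.

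Each array carried pooled nuclei of 5 Sprague Dawley rats. Among females, 4 pools of euhydrated controls were set against 4 pools of rats deprived of water for 72 hours. Among males aged 10 to 12 weeks, 5 control pools were set against 5 pools dehydrated for 3 days. The animals carried no transgene per the labels. RNA came from Trizol extraction with Affymetrix labelling in females, and from QIAzol and RNeasy extraction with Ambion amplification in males, so sex and RNA preparation cannot be told apart. The series also has 5 lactating pools, not analysed here. Pools within a group are described as both biological and technical replicates, so p-values measure only the spread between these pools.

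Another dehydrated female array was left out by the rule. Its vasopressin (Avp) signal was 50.6 and its oxytocin (Oxt) signal 26.0. On the 18 arrays used, Avp lay between 3644 and 7666 and Oxt between 3001 and 6698. Signals are the deposited intensities, whose 2% trimmed mean was about 100 on every array (100.02 to 100.03). Precision rests on few arrays, and no scanner files or detection calls were used here.

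Ribosomal proteins are encoded mostly by single functional genes spread over the genome, here on 15 chromosomes, and are made in near equal numbers because each ribosome takes up one copy of nearly every protein. Their mRNAs are among the most abundant in a cell. They share a 5' terminal oligopyrimidine tract (5' TOP), a run of C and T bases at the transcription start through which mTOR and the RNA-binding protein Larp1 control their translation. Magnocellular neurons are known to enlarge and to raise their synthesis of peptide hormones during dehydration.

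Start-site sequences, which the rule did not use, show runs of C or T bases near the annotated start of most members that have an entry. RefSeq start-site windows on the GRCr8 build matched 40 of the 45 symbols. The sequences below run from 30 bases before to 30 bases after the annotated start, 5' to 3' on the gene's own strand, with the longest run of C or T in capitals. The first 6 belong to large-subunit genes with a probe set whose signals were lower in all dehydrated male pools than in all controls. The last 2 belong to genes with wide array-to-array spread in females.
Rpl21 (chr12:13386124-13386183, minus strand): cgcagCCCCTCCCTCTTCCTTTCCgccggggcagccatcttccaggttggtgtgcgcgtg
Rpl14 (chr8:129163590-129163649, plus strand): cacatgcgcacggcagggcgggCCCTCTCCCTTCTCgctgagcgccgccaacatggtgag
Rpl35a (chr11:81234992-81235051, minus strand): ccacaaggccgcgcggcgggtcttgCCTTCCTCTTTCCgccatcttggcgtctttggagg
Rpl4 (chr8:73566447-73566506, plus strand): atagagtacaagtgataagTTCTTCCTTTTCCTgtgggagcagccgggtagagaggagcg
Rpl24 (chr11:58128376-58128435, minus strand): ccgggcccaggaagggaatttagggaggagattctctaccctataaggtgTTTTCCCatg
Rpl3 (chr7:113507961-113508020, minus strand): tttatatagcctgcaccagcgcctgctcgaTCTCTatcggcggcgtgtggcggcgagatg
Rps28 (chr7:15311304-15311363, minus strand): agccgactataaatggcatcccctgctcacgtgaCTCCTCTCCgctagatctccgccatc
Rpl41 (chr7:1563468-1563527, minus strand): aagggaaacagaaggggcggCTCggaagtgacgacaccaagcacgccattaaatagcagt

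The capitals span 19 bases in Rpl21, 14 in Rpl14 and in Rpl4, 13 in Rpl35a, and 9 in Rps28. Within these windows the longest run was 7 bases in Rpl24, 5 in Rpl3 and 3 in Rpl41. In the 50 bases on either side of the start, a run of 8 or more C or T bases was present on the gene's strand in 35 of 40 members (87.5%), against 36.5% of 33469 promoters of the same length. On the opposite strand it was present in 27.5% of members and 36.7% of all promoters. The letters CTTTCC, which may lie inside such a run, occurred in 35.0% of members and 4.4% of promoters on the gene's strand, and in 2.5% and 4.72% on the opposite strand. In Rpl24 and Rpl41 such a run lies outside the letters shown, and Rpl3 has none. Split by the male result described next, the run was present in 10 of the 11 that fell and had an entry, and in 25 of the other 29. A match of letters is a description of the window and is not a mapped tract.

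Dehydrated males had lower ribosomal protein signals than control males, by small amounts. Of 48 members tested, 12 fell and none rose at an adjusted p under 0.05 (limma with Benjamini-Hochberg adjustment over all probe sets kept), where 9.38% of 21729 probe sets fell and 8.32% rose. The share of members that fell was 25.0%. The falls ran from 9.4% to 20.5% of the control level, and the fold change was below 0 in 41 of the 48 members. The median log2 fold change was -0.08 over members and -0.04 over all probe sets kept. No member was called with the 4 groups in one limma fit, where 5.33% of all probe sets fell. In that fit 6 members were lower and 1 higher at an unadjusted p under 0.05. Without the trend of variance on the mean 4 of 48 members fell, where 7.64% of all probe sets did. The calls also depend on the scaling: when each array was centred on its median instead, 2 members fell, 1 rose and the median over members was -0.005. With that centring 5.02% of all probe sets fell and 12.5% rose. Median signals over all probe sets were 38.9 to 40.4 on male control arrays and 36.1 to 38.3 on male dehydrated arrays, which do not overlap. The median standard error was 0.05 for members and 0.12 for all probe sets kept.

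**Figure D1:**
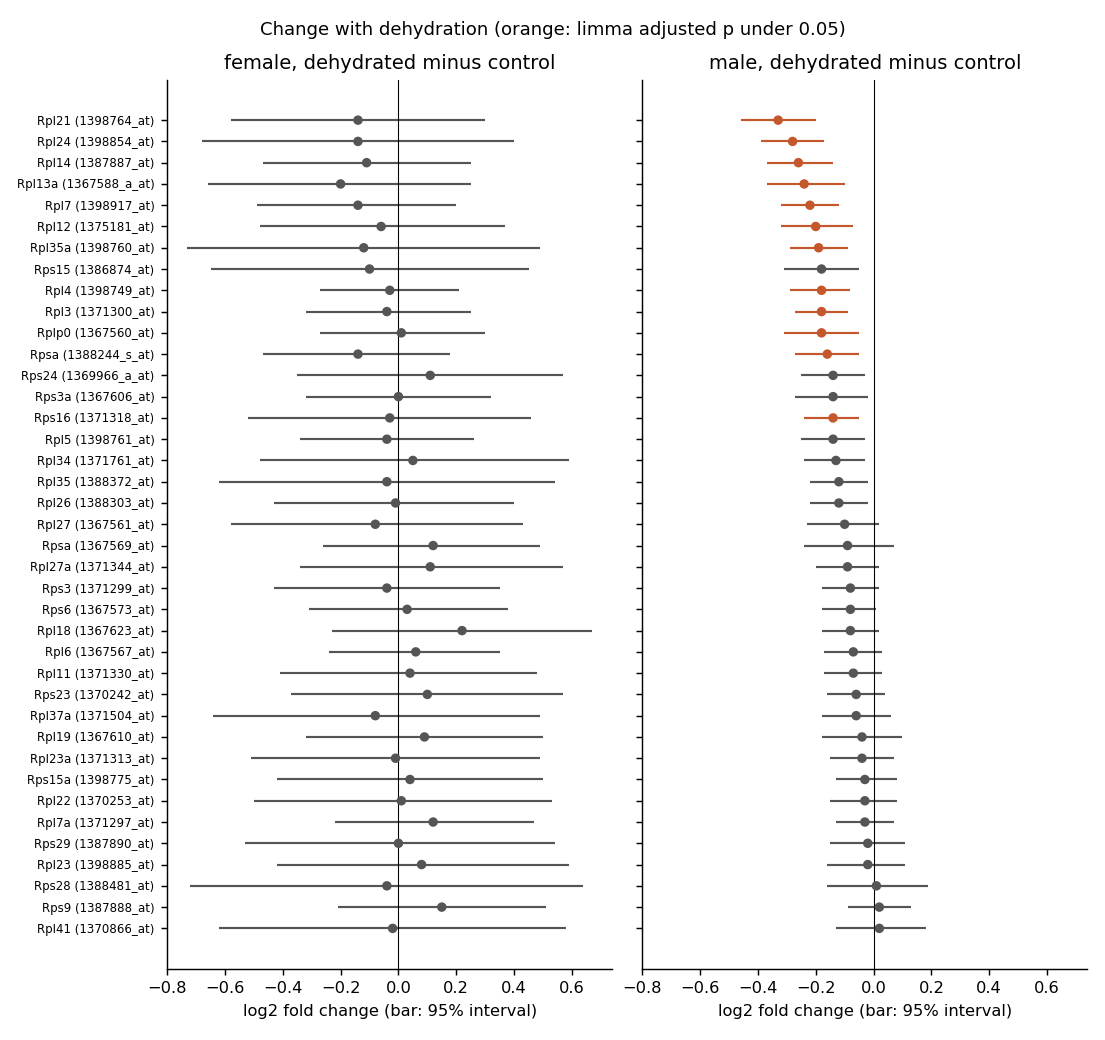
Log2 fold change, dehydrated minus control, for the 39 members with a mean log2 level above 12, in females (left) and males (right), ordered by the male value. Bars are 95% intervals from limma and orange marks an adjusted p under 0.05: 12 members in males, all below 0, and none in females, where the intervals reach from -0.73 to 0.67.

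By subunit, large-subunit proteins made up 10 of the 12 that fell (33.3% of 30 tested), and small-subunit proteins 2 (11.1% of 18). Over all probe sets kept 9.38% fell. Medians were -0.10 for the large and -0.07 for the small subunit on the log2 scale. Whether the subunits differ was not tested. Ordered by p-value, the probe sets that fell were those of Rpl21, Rpl24, Rpl7, Rpl14, Rpl3, Rpl35a, Rpl13a, Rpl4, Rpl12, Rps16, Rpsa and Rplp0.

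Rpl21, a large-subunit protein (1398764_at), had signals of 1333.7, 1488.9, 1643.7, 1380.5 and 1593.0 in the male control pools. The dehydrated pools gave 1088.2, 1157.8, 1202.0, 1219.6 and 1225.1. Every dehydrated pool lay below every control pool. The log2 fold change was -0.33 ± 0.06 (SE, n = 5 and 5, limma adjusted p = 0.00219), a level that fell by 20.5%, and Rpl21 was called under median centring too. In females this probe set gave 1909 ± 305 in controls and 1774 ± 519 in dehydrated pools (SD, n = 4 each), with overlapping groups and a log2 fold change of -0.14 ± 0.20 (SE).

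Rpl24, which lies at the face of the large subunit towards the small one (1398854_at), had male control signals of 1482.4, 1664.0, 1540.5, 1466.4 and 1645.7. Dehydrated pools gave 1283.3, 1284.4, 1294.4, 1374.9 and 1177.3. The groups did not overlap, and the log2 fold change was -0.28 ± 0.05 (SE, limma adjusted p = 0.00262). Rpl24 was the other member called under median centring.

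Rpl7 (1398917_at), a large-subunit protein, had male control signals of 1853.0, 2026.5, 1876.4, 1877.7 and 1833.6 and dehydrated signals of 1646.9, 1546.9, 1713.4, 1651.8 and 1563.7. The groups again did not overlap, at a log2 fold change of -0.22 ± 0.05 (SE, limma adjusted p = 0.00436). Rpl14 (1387887_at), also of the large subunit, had control signals of 1081.5, 1221.2, 1180.4, 1080.5 and 1234.8. Its dehydrated pools gave 912.7, 966.3, 1025.8, 1015.6 and 929.4, all below the controls. The log2 fold change was -0.26 ± 0.06 (SE, limma adjusted p = 0.00595).

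Rpl3, which helps to form the peptidyl transferase centre (1371300_at), had male control signals of 3626.6, 3784.2, 3505.9, 3292.9 and 3592.4. Dehydrated pools gave 3152.2, 3095.7, 3236.5, 3109.7 and 3141.1. The dehydrated pools sat close together below the lowest control, at -0.18 ± 0.04 (log2 fold change, SE, limma adjusted p = 0.00967). Rpl35a (1398760_at), a large-subunit protein mutated in Diamond-Blackfan anaemia, had control signals of 2689.5, 3013.9, 2752.8, 2734.6 and 2747.2. Its dehydrated pools gave 2544.9, 2431.6, 2556.9, 2351.0 and 2307.9. These groups did not overlap, at -0.19 ± 0.05 (limma adjusted p = 0.00996).

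**Figure D2:**
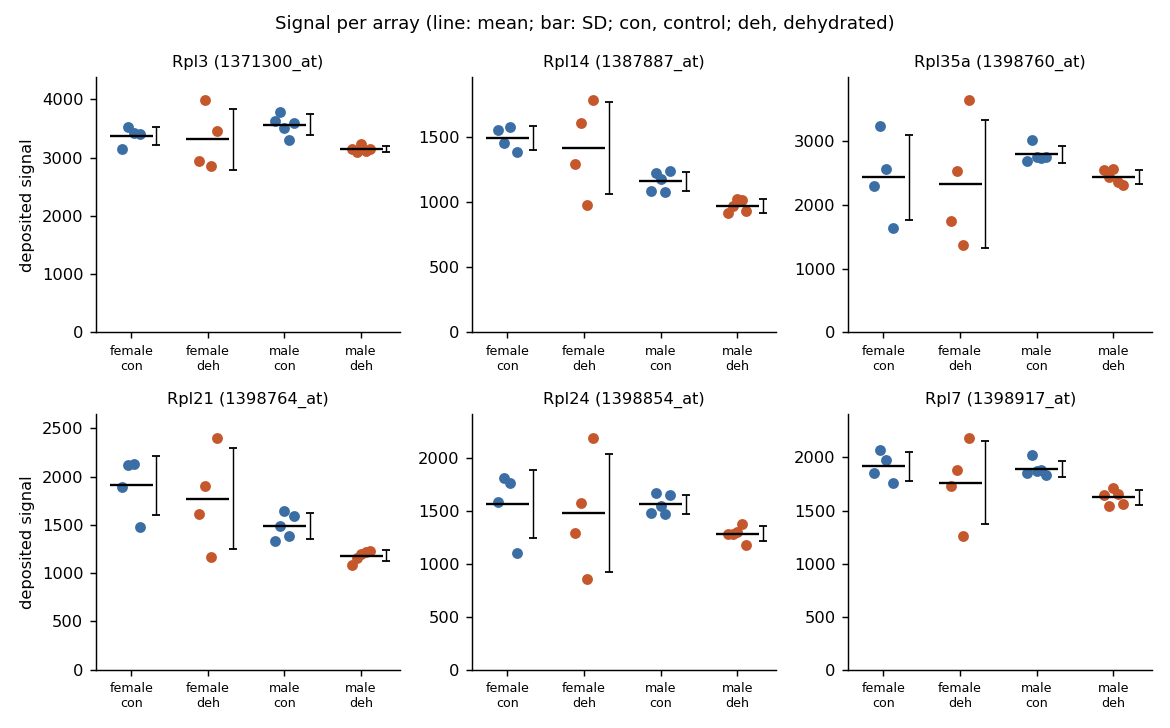
Deposited signal on each array for the 6 members with the smallest male p-values, by sex and treatment; black lines are group means and bars SDs (n = 4 female and 5 male pools a group). Male dehydrated points lie below all male control points in every panel, while the female groups overlap.

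Rpl4, a large-subunit protein with a long extension, had a log2 fold change of -0.18 ± 0.05 (SE, limma adjusted p = 0.0202), and its dehydrated pools (1417.4 to 1499.2) lay below its controls (1536.8 to 1803.7). It is the last of 7 members whose male dehydrated pools all lay below the controls, where 5.94% of probe sets kept did so. No member had all dehydrated pools above all controls, which 6.82% of probe sets had. The 5 others that fell had overlapping groups.

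Rplp0, the base of the ribosomal stalk that recruits elongation factors, ran from 1580.8 to 1978.5 in control males, with a median of 1724.4. Its dehydrated pools ran from 1459.1 to 1658.7, with a median of 1516.4. The log2 fold change was -0.18 ± 0.06 (SE, limma adjusted p = 0.0475), so it passed narrowly. Rplp0 is widely used as a reference transcript.

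The other 4 that fell were Rpl13a (-0.24 ± 0.06), Rpl12 of the stalk base (-0.20 ± 0.06), Rps16 (-0.14 ± 0.05) and Rpsa (-0.16 ± 0.05), as log2 fold changes with SE; their limma adjusted p-values lay between 0.0176 and 0.0470. Rps6, the protein that S6 kinases phosphorylate, had 3319 ± 182 in male controls and 3128 ± 107 in dehydrated males (SD, n = 5 each; log2 fold change -0.08, limma adjusted p = 0.217). Rps23, a protein of the decoding centre, had 4709 ± 299 and 4517 ± 195, a log2 fold change of -0.06 ± 0.05 (SE) that became 0.019 under median centring. Rpl26, which lies near the exit of the peptide tunnel, had 3699 ± 149 and 3398 ± 197 (-0.12 ± 0.05, limma adjusted p = 0.0793). These 3 did not pass the test, and their male groups overlapped.

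Different probe sets of a gene did not always give the same value. For Rpl3, the called probe set stood at -0.18 in males, while 1396049_x_at stood at 0.18 ± 0.08 (log2 fold change, SE, limma adjusted p = 0.113). The latter was the 1 member called higher in males under median centring, and also without the fourth male control. That probe set had control signals of 213.7 to 269.2 and dehydrated signals of 240.4 to 293.5 in males, and its suffix marks probes that can bind other transcripts. The 3 probe sets of Rpsa, the laminin receptor homologue of the small subunit, stood at -0.16 (1388244_s_at, called), -0.09 (1367569_at) and -0.01 (1371189_x_at). A second Rpl7 probe set, 1375788_at, stood at -0.04, and those of Rps24 at -0.14 and -0.19. Ribosomal protein genes have many processed copies in mammalian genomes, and probe sets may bind more than the named transcript, so the assignment of a signal to a single gene is uncertain.

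The probe sets with several symbols do not enter the count above. Of 29 tested in males, 8 fell (27.6%) and none rose, with a median log2 fold change of -0.10. Over all probe sets kept in males 9.38% fell and 8.32% rose, with a median of -0.04. In females none of 29 was called, where 1.19% of all probe sets fell and 1.77% rose.

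In females no ribosomal protein probe set passed the test. Of 50 members tested, none rose and none fell in limma, and none had an unadjusted p under 0.05. Over all 21729 probe sets kept, 1.77% rose and 1.19% fell at the adjusted threshold. At an unadjusted p under 0.05 in limma, 1804 of them were higher and 2314 lower. Fold changes lay on both sides of 0, 22 above and 28 below, with a median of -0.02 against -0.03 for all probe sets (log2). No member had all dehydrated pools below or all above the controls, where 7.04% and 5.31% of probe sets had. The precision was lower than in males: the median standard error of a member was 0.21. The 95% interval in females contained both 0 and the male value for all 12 members that fell in males, and 11 of those had a female value below 0.

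The smallest female p-values belonged to probe sets with low signals. Rps24 1390494_at ran from 28.7 to 46.6 in controls and from 24.7 to 31.1 in dehydrated pools. The groups overlapped, at -0.34 ± 0.19 (log2 fold change, SE, limma adjusted p = 0.368). The other probe set of the gene, 1369966_a_at, stood at 0.11 ± 0.21. Rpl7 1375788_at (-0.29 ± 0.23) and Rpl3 1396049_x_at (-0.14 ± 0.12) followed, neither of them past the test.

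Among the other female members, Rps23 had 3354.9, 4351.9, 3888.4 and 2695.8 in controls and 3229.3, 4819.0, 2634.2 and 4951.6 when dehydrated. The dehydrated pools enclosed the whole control range. Its log2 fold change of 0.10 ± 0.22 (SE) became -0.088 under quantile normalization. Rpl26 (-0.01 ± 0.19) and Rplp0 (0.01 ± 0.13) also changed sign with the scaling, to 0.029 under median centring and to -0.149 under quantile normalization. Rpsa 1388244_s_at stood at -0.14 ± 0.15.

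On the female arrays the members moved together from pool to pool, over a wider range than on the male arrays and within both treatments. The mean log2 level of the 39 members with a mean above 12, after rescaling to a trimmed mean of 500, was 13.42, 13.58, 13.51 and 13.11 in female controls. It was 13.27, 13.65, 12.87 and 13.80 in dehydrated females, so the lowest and the highest array were both dehydrated. The third dehydrated array was the lowest for 35 of the 39, and the fourth the highest for 31. The mean of the left-out array was 12.54.

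The direction of the female median rests on single pools. Without the third dehydrated pool, 44 of 50 members were above 0 and the median was 0.155; without the fourth, 42 were below 0 and the median was -0.106. With the left-out array added it was -0.163. No member was called in any of these fits, with 4, 0 and 0 at an unadjusted p under 0.05 in limma.

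**Figure D3:**
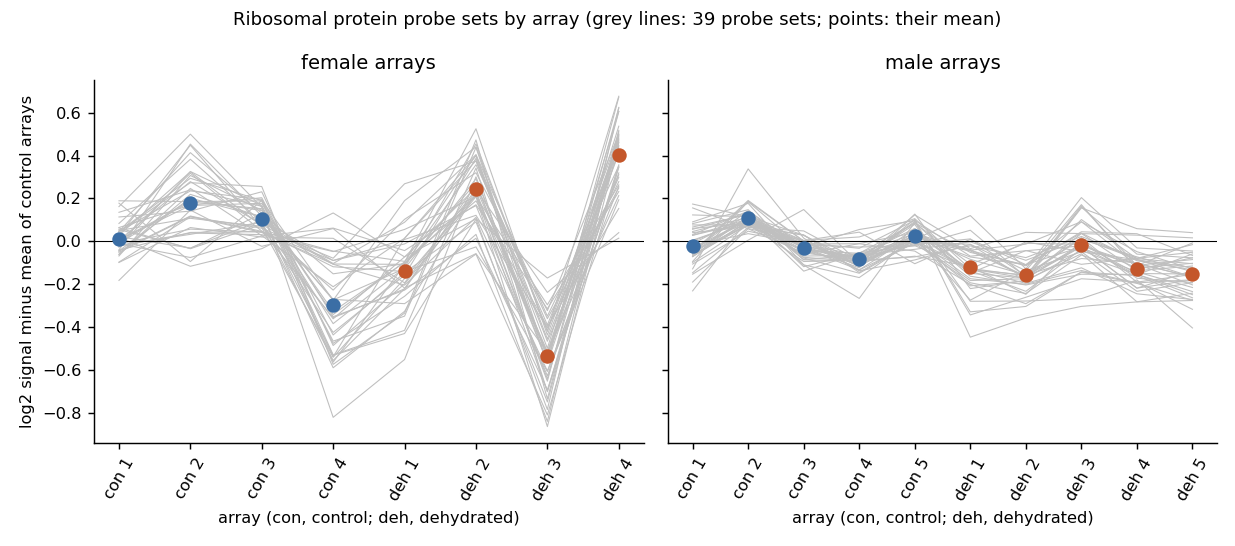
Log2 signal of each of 39 members on each array, minus its mean over the control arrays of its set (grey lines), and their mean per array (blue, control; orange, dehydrated), for females (left) and males (right). In females the lines rise and fall together, lowest on the third and highest on the fourth dehydrated array; in males they stay closer to 0.

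In males the same means were 13.49, 13.62, 13.48, 13.43 and 13.54 in controls and 13.39, 13.36, 13.49, 13.38 and 13.36 in dehydrated pools. The third dehydrated pool lay within the control range and the other 4 below it. Without that pool 18 members fell, where 9.3% of all probe sets did. Without the fifth dehydrated pool or the second control pool 7 fell, where 7.02% and 6.74% of all probe sets did.

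Residuals from the group means described the same pattern. Across the 741 pairs of the 39 members, the median correlation was 0.92 over the 8 female arrays, and every pair was above 0. Over the 10 male arrays the median was 0.60, with 711 pairs above 0. These are descriptions of arrays that share RNA, labelling and scaling. The median SD between pools of a group was 0.37 for these members in females, against 0.24 for all probe sets kept, and 0.08 in males, against 0.18. These 39 members thus spread more than the typical probe set kept in females and less in males. They have a high mean level, and the probe sets kept were not matched to them in level.

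The female spread followed the number in the gene's name. Ribosomal proteins were numbered by their migration on gels, and low numbers tend to belong to larger proteins. The SD between female pools was lowest for Rpl4 (0.11), Rpl3 (0.16), Rpl6 (0.18), Rplp0 (0.18) and Rpl5 (0.19). It was highest for Rps28 (0.59), Rpl41 (0.52), Rpl35a (0.52), Rpl35 (0.50) and Rpl37a (0.48), all log2. Rpl41 and Rps28 are among the small proteins of their subunits. Spearman's rho between number and SD was 0.89 over 25 large-subunit and 0.76 over 11 small-subunit probe sets in females, and 0.32 and 0.47 in males. All these points come from the same arrays, and the rhos are given as descriptions.

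**Figure D4:**
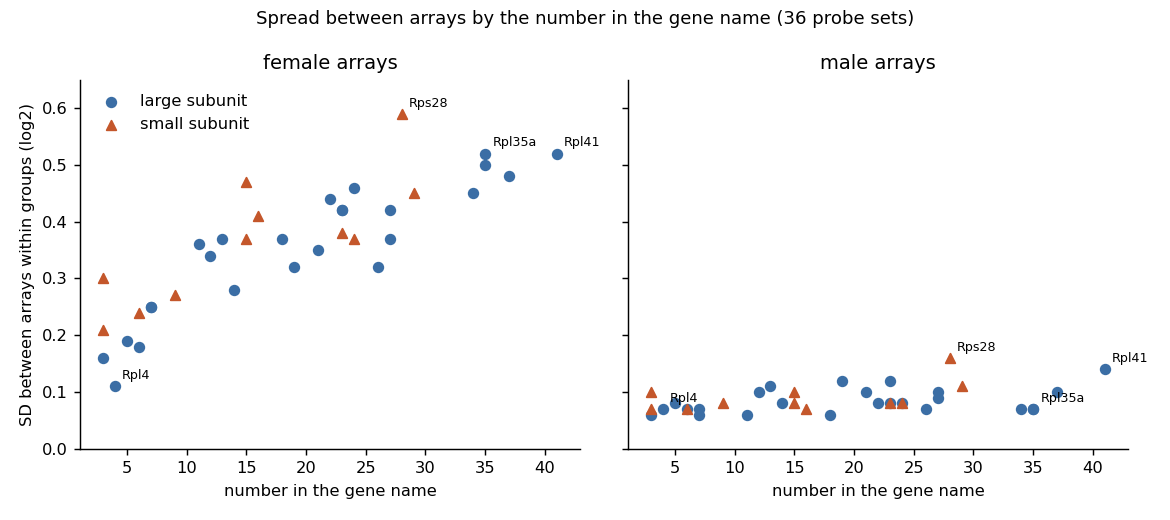
SD between arrays within groups (log2) against the number in the gene name for 36 members with a mean log2 level above 12, in females (left) and males (right); circles are large-subunit and triangles small-subunit proteins. The female SD climbs from 0.11 for Rpl4 to 0.52 for Rpl41 and 0.59 for Rps28, and the male values lie at or below 0.16.

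Rps28 shows the extent. Female controls gave 1782.9, 2253.3, 1779.1 and 902.3, and dehydrated females 1087.6, 1963.1, 1077.9 and 2538.3, a range of 2.81 times between the lowest and the highest array. Rpl4 gave 1896.1, 1727.4, 1828.5 and 2052.2 in controls and 1780.7, 2013.4, 1663.1 and 1891.6 when dehydrated, a range of 1.23 times. On the array where Rps28 was lowest, the fourth control, Rpl4 was at its highest.

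Values that bear on RNA quality moved with some of these arrays. The ratio of 3' to 5' probe sets for beta-actin, which rises when cDNA is short, was 13.3 on the second female control and 5.30 on the fourth dehydrated array, and 2.44 to 3.65 on the other 6 female arrays used. Both of those arrays had high member means, but the second dehydrated array (13.65) had a ratio of 2.74. In males the ratio was 6.35 in controls and 7.92 in dehydrated pools on average (exact permutation test, two-sided p = 0.0238, adjusted p = 0.143 over 6 such tests, n = 5 each), in the comparison where members fell. The male Gapdh ratio gave 3.08 and 3.17 (exact permutation p = 0.778). The other 4 tests, of these ratios in females and of the 5S ribosomal RNA signal in both sexes, had p-values of 0.543 to 1.0 in the same exact test. For the female Gapdh ratio this test of means turns on the second control, at 4.12, and cannot show a shift of the other arrays. The other controls lay at 1.02 to 1.05 and the dehydrated arrays used at 1.07 to 1.68. The part of these ratios and signals in the results was not tested.

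The sets were compared by the difference of the dehydration effects. No member of 49 differed in limma, where 7 of 21729 probe sets (0.0322%) did, and 1 member had an unadjusted p under 0.05. At that unadjusted threshold 1149 of the 21729 probe sets had a difference above 0 and 1028 a difference below 0. The female minus male difference was above 0 for 40 of the 49, with a median of 0.105 on the log2 scale. That median was -0.013 under quantile normalization, -0.053 with the left-out array and -0.041 without the fourth dehydrated female pool. A fall in males and none in females therefore does not show that the sets differ. The member with the smallest p was Rpl3 1396049_x_at (-0.32, limma adjusted p = 0.408). Rpl39 1367934_at, a short peptide of the exit tunnel, had a low mean signal of 118 over the arrays used. It stood at -0.18 ± 0.15 in females and 0.25 ± 0.15 in males, a difference of -0.43. Rpl18 differed by 0.30 and Rplp0 by 0.19, with female values of 0.22 and 0.01 and male values of -0.08 and -0.18.

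The paralogues and the extra copy of Rps4 that the rule also takes had low signals. Rpl3l, the muscle form of Rpl3, had signals of 1.1 to 4.0 on the arrays used and failed the filter on low values. Rps27l, a p53 target, ran from 94.7 to 103.6 in female controls and from 79.7 to 123.5 in dehydrated females, and had 52.5 ± 10.9 and 51.2 ± 5.03 in the male groups (SD). Rps4y2 had 52.0 ± 14.1 and 48.9 ± 9.12 in females and 31.1 ± 10.3 and 34.7 ± 5.38 in males. Neither of the latter passed the test in either sex. Rpl30 1386517_at and Rpl14 1375375_at were not tested in males, since they failed the filter there. The only member probe sets of Rpl28, Rps13, Rpl30 and Rpl39 were dim too. Their mean signals over the arrays used were 24.4, 19.9, 13.3 and 118.

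Around the ribosome itself, factors that build it were higher more often than lower in dehydrated males. Of 72 ribosome assembly factors tested, 14 rose and 2 fell in males (background as above, 8.32% and 9.38%), with a median log2 fold change of 0.11. In females 2 of 72 rose and none fell, with a median of 0.12, where 1.77% of all probe sets rose and 1.19% fell. Nop56, a core protein of the box C/D particles that methylate ribosomal RNA, rose in both: from 304 ± 39.3 to 467 ± 43.4 in females and from 407 ± 40.0 to 597 ± 34.4 in males (SD; limma adjusted p = 0.0203 and 0.000108). Nop10, of the H/ACA particles, rose in males by 0.37 ± 0.05, and Gnl3 (nucleostemin) by 0.52 ± 0.08 (log2 fold change, SE). The 2 that fell in males were Dkc1, the pseudouridine synthase of the H/ACA particles (-0.46 ± 0.13), and Pes1, of the complex that matures the large subunit (-0.37 ± 0.12). Wdr36, of the small-subunit processome, was the other gene that rose in females (0.49 ± 0.12, limma adjusted p = 0.0492). Under median centring 22 assembly factors rose in males and none fell, where 12.5% of all probe sets rose and 5.02% fell. No assembly factor fell in males without dehydrated pool 3 or control pool 1 or 4 or with quantile normalization, and 1 did without any of 5 other pools. The female count of 2 was 0 with the left-out array added and without control pool 1 or 4 or dehydrated pool 1, and 1 without control pool 3 or dehydrated pool 2 or 4.

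Other transcripts with a 5' TOP were called in both directions. Of 17 tested in males, where 8.32% of all probe sets rose and 9.38% fell, 1 rose (Eif3l, 0.25 ± 0.05) and 3 fell: Eif4b, a helper of the eIF4A helicase (-0.31 ± 0.06), Vim (-0.60 ± 0.18) and the elongation factor Eef1g (-0.14 ± 0.05), as log2 fold changes with SE. Eif4b also fell in females (-0.58 ± 0.10, limma adjusted p = 0.0139). With median centring 3 rose and 1 fell in males, where 12.5% of all probe sets rose and 5.02% fell. The count that fell was also 1 without dehydrated pool 2, 4 or 5 or control pool 2. The female call was lost with median centring, with the left-out array added, and without control pool 3 or dehydrated pool 1 or 2. Rack1, a scaffold on the small subunit, stood at 0.04 in both sets and was not called.

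Genes of the mTOR pathway and its S6 kinases split in males, with 7 of 37 higher and 5 lower (8.32% and 9.38% over all probe sets), and none called in females. Without dehydrated pool 2 or 4 or control pool 2, 4 were higher, where 6.53% to 6.87% of all probe sets rose. With the 4 groups in one fit 3 were higher and 3 lower, where 5.11% and 5.33% of all probe sets were. Eif4ebp1, the repressor that mTOR inactivates, rose by 0.71 ± 0.09 and its target, the cap-binding protein Eif4e, by 0.33 ± 0.05 (log2 fold change, SE, males). Larp1, the TOP-binding protein, rose by 0.16 ± 0.05. Those that fell included Sesn1, a stress-induced restraint on mTORC1 (-0.53 ± 0.08), and Eef2k, the kinase that slows elongation (-0.57 ± 0.12). Eif4ebp2, another repressor of Eif4e (-0.30 ± 0.07), and Rps6kb1, an S6 kinase (-0.38 ± 0.09), also fell. The female values were 0.57 for Eif4ebp1, 0.39 for Eif4e and -0.62 for Sesn1, none past the threshold (limma adjusted p = 0.109, 0.0733 and 0.0529). Genes of RNA polymerases I and III and their regulators gave 2 that rose and 1 that fell of 37 in males, where 8.32% of all probe sets rose and 9.38% fell: Myc (0.56 ± 0.11) and the shared subunit Polr2k (0.27 ± 0.07) rose and Taf1d (-0.35 ± 0.08) fell; none of 36 was called in females.

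Markers of other cells moved in the same comparisons, and in pooled tissue fewer cells of a type and less RNA per cell cannot be told apart. In males, where members fell, 12 of 15 mural and meningeal markers fell and 1 rose, where 9.38% of all probe sets fell and 8.32% rose. The one that rose was the mural marker Rgs5 (log2 fold change 0.6 ± 0.1, SE, limma adjusted p = 0.00123), and Pdgfrb stood at -0.03. The summed signal of the 15 was 9308 to 15515 in control and 5695 to 11066 in dehydrated pools. Ptgds, which was not called, averaged 5076 and 4220 of it. Microglial markers fell in 5 of 10 tested, with sums of 1052 to 1568 and 856 to 1147. Ependymal and choroid plexus markers fell in 3 of 5, with sums of 972 to 1446 and 527 to 821, and 2 of 3 blood markers fell, with sums of 1607 to 2158 and 770 to 1108. In females 5 of 13 oligodendrocyte markers fell, where 1.19% of all probe sets did. The sums of the 13 were 7354 to 10400 in controls and 4193 to 7281 in dehydrated pools. Female mural and meningeal markers fell in 3 of 15 (Col1a2, Igf2 and Igfbp2), with sums of 7089 to 9410 and 4991 to 7777, and 1 of 3 blood markers fell (Alas2), with sums of 1329 to 2485 and 761 to 1720. No female microglial or ependymal marker was called; the microglial sums were 1022 to 1271 and 793 to 964. No marker was at 0 in any group used; the dimmest mural marker, Pdgfrb, averaged 35.7 and 35.1 in the male groups. Their part in the results was not tested.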

How the data were processed

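Per the labels, RNA of pooled supraoptic nuclei was hybridised to Affymetrix rat arrays. Each deposited value is a probe set's intensity on a linear scale, which the authors made with GCOS 1.2 (males) or MAS5 (females), per the submitters' processing notes. The files' trimmed means are all near 100. Scanner files were not used here. Signals were rescaled to a 2% trimmed mean of 500, 32 was added and log2 was taken, so fold changes of dim probe sets are understated. The 57 control probe sets were left out. Probe sets above the 30th percentile of the mean were kept and fitted with limma 3.58.1 in R 4.3.3 (trend on the mean, Benjamini-Hochberg over 21729 probe sets, threshold 0.05). Females and males were fitted apart, and the difference of effects on all 18 arrays. Summaries used Python 3.11.15 and scipy 1.17.1. The fit was tested on simulated data. Symbols came from the platform annotation; the update through gene identifiers changed no member. No arrays held identical values.

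Named members were the 6 with the smallest p among those called in males, the 3 with the smallest p in females, those with the smallest p for the difference, and Rps23, Rpl26, Rplp0 and Rpsa by rule. Rpl4, Rpl13a, Rpl12, Rps16, Rps6, Rps28, Larp1, Rps6kb1 and the genes of lowest and highest spread were named after their values were seen, as was the bound of 12. Members and gene lists were chosen with earlier results of these data known. The lists covered other 5' TOP transcripts, assembly factors, RNA polymerases I and III, the mTOR pathway and markers of other cells. Endothelial markers gave no call in either sex. Astrocyte markers fell in 3 of 11 in males and 1 of 11 in females. Of 10 magnocellular markers tested, 2 rose in each sex and 1 fell in males. Over all probe sets 8.32% rose and 9.38% fell in males, and 1.77% rose and 1.19% fell in females. Among the listed ribosomal protein paralogues that are not members, only Rpl7l1 was tested, and it fell in males.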

Additional observations from a re-analysis of the deposited data

Results flagged for a closer look

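Of 64 groups of 4 or 5 pools checked for a value far from the rest, 5 stood out, and chance gives about 1 in 20. The Rpl7 probe set 1375788_at had a signal of 162.6 on the first dehydrated female array, where the other 3 lay between 87.0 and 95.4. The second male control was high for Rpl35a, at 3013.9 against 2689.5 to 2752.8, and for Rpl7 1398917_at, at 2026.5 against 1833.6 to 1877.7. It had the highest value of 24 of the 39 members with a mean log2 above 12. Rpl26 was 3740.7 on the third dehydrated male array, where the others lay between 3240.4 and 3374.7. On the same array the mean log2 level of the 39 members was 13.49, above the other dehydrated males.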

How the results depend on the processing

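The count of members that fell in males was 12. In that fit 9.38% of all probe sets fell. The count was 22 with quantile normalization (all 12 among them), where 7.31% of all probe sets fell. It was 2 with median centring (5.02% of all), 4 without the mean-variance trend (7.64%) and 0 with the 4 groups in one limma fit (5.33%). In the fit of 4 groups 6 members were lower and 1 higher at an unadjusted p under 0.05. Adding the probe sets of several symbols, an alternative chosen after seeing the data, gave 20. Leaving out 1 male pool gave 7 to 18, where 6.54% to 10.2% of all probe sets fell. The count that rose in males was 0, and 1 with median centring; leaving out 1 pool gave 0 to 1 (1 without the fourth control). The male median was -0.005 with median centring. That centring moved the split over all probe sets from 1808 higher and 2038 lower to 2710 and 1091, and the median of all probe sets from -0.042 to 0.036. The cause was not tested.

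Among named values, Rps23 reversed in females with quantile normalization (-0.088) and with the fifth dehydrated array (-0.108), and in males with median centring (0.019). Rpl26 reversed in females with median centring (0.029), and Rplp0 in females with quantile normalization (-0.149) and with the fifth array (-0.179). Leaving out 1 female pool gave -0.029 to 0.274 for Rps23, -0.12 to 0.158 for Rpl26 and -0.062 to 0.119 for Rplp0. Of the named values under the alternatives, 349 kept their direction and side of the threshold, 36 lost the call (all in males), 1 gained it and 16 reversed. No paired analysis was possible because the replicate numbers of the dehydrated pools and the male controls come from accession order. The female controls carry numbers in their names, which the dehydrated females do not share. The lactating pools, which also carry numbers in their names, were not analysed here. Of 72 assembly factors, 14 rose in males, where 8.32% of all probe sets rose. The count was 22 with median centring (12.5% of all) and 9 with the 4 groups in one fit (5.11%). In females 2 rose, against 8 in that fit, 1 with an offset of 1 or no filter, and 0 without the trend or with the fifth array. Precision is limited by 4 or 5 pools a group.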
